A study of Rattus norvegicus with 12 samples.

Results

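The peripheral myelin genes of Schwann cells described here were 8 rat genes: Pmp2, Pmp22, Prx, Egr2, Sox10, Gjb1, Drp2 and Ncmap. Probes were assigned to them by the RefSeq accession that the array gives each probe, and 7 of the 8 genes had a probe, out of 15153 genes named in this way on the array. No probe matched Ncmap, a gene for a protein of noncompact myelin, and it is not analysed here. Sciatic nerve, lumbar dorsal root ganglia (DRG) and dorsal spinal cord were profiled on 12 single-color arrays after injection of the myelin basic protein peptide MBP84-104 (50 μg in 5 μL) into the left sciatic nerve of female rats. The nude group consisted of 8-week-old athymic rats (rnu-/-, Hsd:RH-Foxn1rnu), which lack mature T cells, collected on day 7. The wild-type group consisted of 8-week-old Sprague-Dawley rats (NORMAL in the labels), collected on day 12 by the labels, although the text of the study gives 1 week for both groups and names heterozygous rats as the wild-type animals. The controls were the right sciatic nerve, labeled as a site of PBS injection, the right DRG, and the dorsal cord above the lumbar enlargement, which was compared with the lumbar cord. By the text of the study, both nerves and both cord segments came from the same animals. Each of the 12 conditions was 1 array of RNA pooled from 3 rats, so a difference between 2 conditions had no replicate check and is given with no p-value.

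Schwann cells wrap axons of peripheral nerve in myelin, whereas oligodendrocytes do so in the spinal cord. Sox10 is a transcription factor that both cell types need, and Egr2 (Krox20) is the factor that switches Schwann cells to the myelinating program. Pmp22 is a membrane protein of compact peripheral myelin, and Pmp2 is a fatty acid-binding protein on the cytoplasmic face of the same membranes. Periaxin (Prx) and Drp2 form a complex that ties the outer Schwann cell surface to the basal lamina. Gjb1 encodes connexin 32, the gap junction protein of noncompact myelin, which oligodendrocytes make as well. In RNA of whole tissue, fewer Schwann cells and less RNA per Schwann cell cannot be told apart.

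RefSeq (GRCr8) promoter sequences were available for 5 of the 7 measured genes. The 250 bases before the start are shown for 3 genes that moved together across the arrays (Pmp22, Prx and Egr2) and for Gjb1, which went the other way in the cord. They lie at chr10:48294682-48294931 (plus strand), chr1:91914171-91914420 (plus strand), chr20:21054442-21054691 (minus strand) and chrX:70541595-70541844 (plus strand), and each is printed 5′ to 3′.
Pmp22: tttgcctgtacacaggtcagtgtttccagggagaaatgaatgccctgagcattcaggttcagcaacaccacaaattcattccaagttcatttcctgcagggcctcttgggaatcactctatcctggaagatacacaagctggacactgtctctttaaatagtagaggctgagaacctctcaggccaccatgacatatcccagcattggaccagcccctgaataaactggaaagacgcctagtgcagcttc
Prx: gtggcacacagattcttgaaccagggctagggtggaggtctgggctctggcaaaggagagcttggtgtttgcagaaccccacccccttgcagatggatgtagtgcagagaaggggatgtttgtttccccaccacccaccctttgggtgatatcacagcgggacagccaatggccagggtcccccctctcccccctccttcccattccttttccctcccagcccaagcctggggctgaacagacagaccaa
Egr2: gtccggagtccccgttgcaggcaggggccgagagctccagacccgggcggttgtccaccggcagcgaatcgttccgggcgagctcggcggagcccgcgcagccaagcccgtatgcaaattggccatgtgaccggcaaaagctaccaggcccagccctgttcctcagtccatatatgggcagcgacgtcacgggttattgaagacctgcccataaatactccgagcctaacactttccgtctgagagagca
Gjb1: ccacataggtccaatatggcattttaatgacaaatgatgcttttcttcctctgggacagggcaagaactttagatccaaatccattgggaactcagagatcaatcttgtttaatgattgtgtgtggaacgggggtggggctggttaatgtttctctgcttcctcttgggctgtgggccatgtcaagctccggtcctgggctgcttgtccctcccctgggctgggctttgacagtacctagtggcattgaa
A pair of short cores were searched on both strands of these windows, ACAAAG for SOX factors and GTGGGCG for EGR factors, and a match would be in capitals. Neither core was found in the 7 windows listed for the 8 genes, which include a window of Ncmap and 2 of Drp2. Of all 33469 windows of the same length, 16.3% held the first core and 6.27% the second.

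Levels are log2 intensities after subtraction of the array median, so 0 is the median probe of an array and 1 unit is a 2-fold difference. The median signal per array was between 15.4 and 74.9, with the lowest on the array of the nude injected nerve, and between 59.5% and 76.9% of spots were well above background. Pmp2, Pmp22, Prx, Egr2 and Sox10 were well above background on all 12 arrays, Gjb1 on 11 and Drp2 on 10. The median SD between replicate spots of a probe on 1 array was 0.0702, and for the 7 genes it was between 0.0151 (Pmp2) and 0.181 (Drp2). The labeled tissues could be checked against their markers. All 9 measured sensory neuron genes were higher in DRG than in nerve or cord, all 12 oligodendrocyte genes were higher in cord than in nerve or DRG, and all 7 fibroblast genes were higher in nerve than in the other tissues (limma, adjusted p under 0.05). All 7 measured genes passed the filter in every comparison below.

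**Figure D1:**
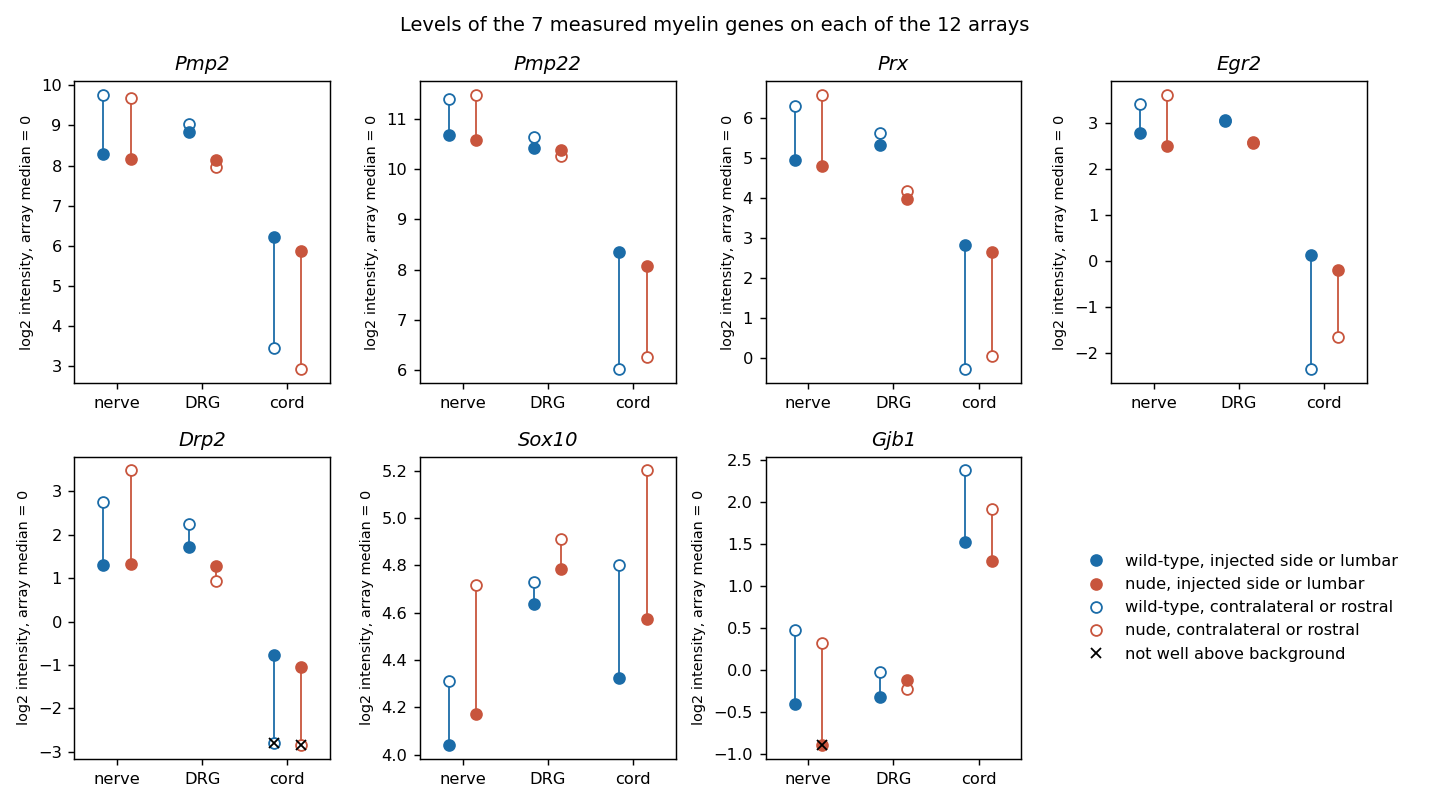
Log2 intensity of each of the 7 measured genes (vertical axis, array median at 0, scale differs between panels) in nerve, DRG and cord (horizontal axis); 1 point is 1 array, lines join the 2 arrays of a comparison, and crosses mark probes not well above background. Filled points lie below open points in nerve in all 7 panels, and in cord they lie above open points for Pmp2, Pmp22, Prx, Egr2 and Drp2 but below them for Sox10 and Gjb1.

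The first comparison asked how the myelin genes differed between the nerve that received MBP84-104 and the opposite nerve. All 7 genes were lower in the injected nerve in both rat types, and 3 of them, Pmp2, Prx and Drp2, were at least 2-fold lower in both. Of the 9988 genes measured in both rat types, 47.6% were lower in both and 312 (3.12%) at least 2-fold lower in both. In the wild-type nerve 3 of 7 passed 2-fold, as did 5% of the 10670 genes measured in that direction (5.84% were higher), and the median log2 ratio of the 7 was -0.87 against -0.05 over all genes. In the nude nerve 5 of 7 did, against 14.3% of 10219 genes (7.6% were higher), and the median was -1.21 against -0.39 over all genes.

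Among the compact myelin genes, the Pmp2 level was 8.28 in the injected and 9.76 in the contralateral nerve of the wild-type group, and 8.15 and 9.69 in the nude group. Pmp2 was thus lower in the injected nerve by 2.80-fold in wild-type and 2.91-fold in nude rats. A second Pmp2 probe gave log2 ratios of -1.37 and -1.27, against -1.49 and -1.54 for the brighter probe. The Pmp22 level was 10.69 in the injected and 11.40 in the contralateral wild-type nerve, and 10.58 and 11.48 in the nude nerves. Pmp22 was thus also lower in the injected nerve, but the differences of 1.64-fold and 1.87-fold stayed under 2-fold.

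In the periaxin complex, the Prx level was 4.95 in the injected and 6.31 in the contralateral wild-type nerve, and 4.79 and 6.58 in the nude nerves, which is 2.57-fold and 3.47-fold lower on the injected side. The Drp2 level was 1.31 and 2.76 in wild-type and 1.32 and 3.48 in nude rats. Drp2 had the lowest ratio of the 7 genes in nude rats, 4.49-fold lower on the injected side against 2.74-fold in wild-type rats, and the injected levels of the 2 rat types lay closer together than the contralateral ones.

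Of the transcription factors, Egr2 had a level of 2.79 in the injected and 3.42 in the contralateral wild-type nerve, and of 2.49 and 3.61 in the nude nerves. It was 1.55-fold lower in wild-type and 2.18-fold lower in nude rats. Sox10 moved least of the 7 genes in both rat types, from 4.31 in the contralateral to 4.04 in the injected wild-type nerve and from 4.72 to 4.17 in nude rats. Its log2 ratios were -0.27 and -0.54, and less the median of all genes they were -0.22 and -0.15. For Gjb1, the level was -0.40 in the injected and 0.47 in the contralateral wild-type nerve, a 1.83-fold difference. In nude rats it was 0.32 in the contralateral nerve and not well above background in the injected nerve, so its 2.31-fold lower value there is uncertain.

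**Figure D2:**
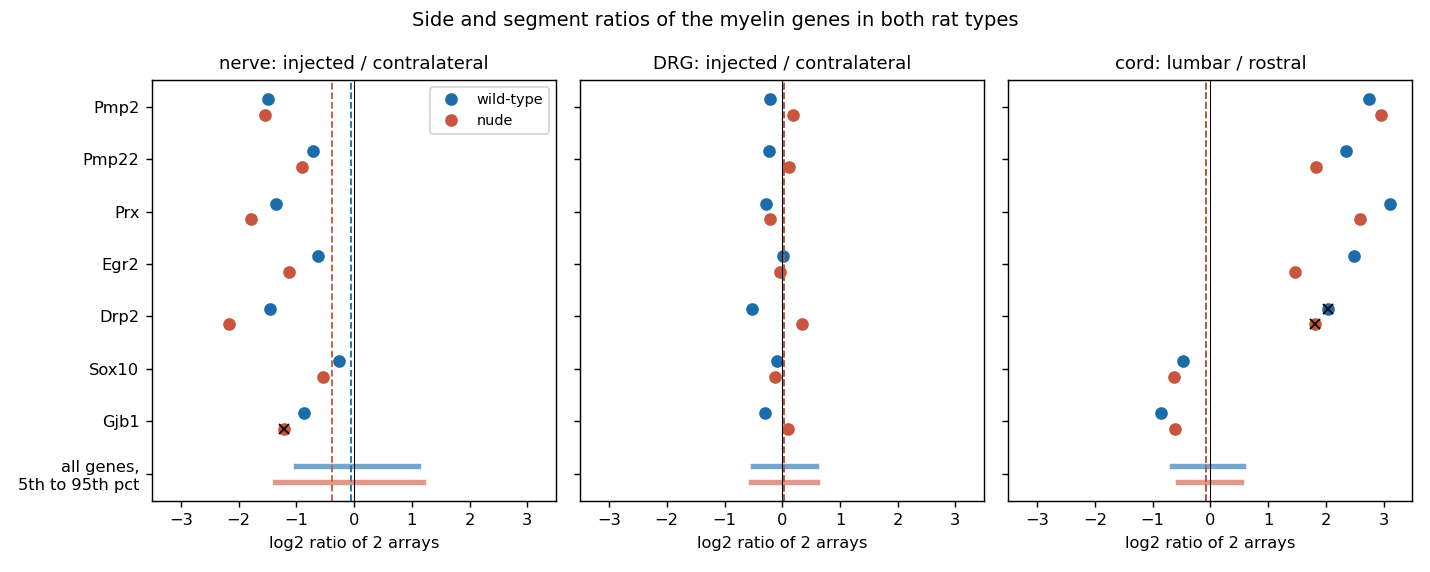
Log2 ratio (horizontal axis) of each measured gene in nerve, DRG and cord of wild-type and nude rats; dashed lines are the medians of all genes, thick bars the 5th to 95th percentile of all genes, and crosses mark ratios with 1 array not well above background. Ratios of the 7 genes are all below 0 in nerve, between -0.53 and 0.35 in DRG, and between 1.47 and 3.12 for 5 of the 7 genes in cord.

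Against all genes of the same comparison, Pmp2, Prx and Drp2 lay near the low end. In wild-type nerve 1.89%, 2.37% and 2.03% of genes had a lower ratio than Pmp2, Prx and Drp2, and in nude nerve 3.15%, 1.54% and 0.577% did. The other 4 genes were less far out in both rat types, with 6.78% (Gjb1), 9.59% (Pmp22), 11.9% (Egr2) and 30.6% (Sox10) of genes lower in wild-type nerve, and from 7.96% (Gjb1) to 39.1% (Sox10) in nude nerve. The median of all genes was itself at -0.39 in nude nerve, whose injected array had the lowest signal of the 12, and relative to it 3 of the 7 genes (Pmp2, Prx and Drp2) were at least 2-fold lower. With the 75th percentile of each array in place of the median, the nude count was also 3. With normexp background correction in place of the processed signal, the median of all genes in nude nerve was -0.83 and the log2 ratios there were -2.66 for Pmp2, -2.77 for Prx, -2.09 for Pmp22 and -1.53 for Sox10, while Gjb1 stood at -0.33. In wild-type nerve the same correction gave -0.97 for Drp2 and -0.35 for Gjb1.

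Of the 16 other peripheral myelin genes measured, 11 were lower in the injected nerve in both rat types (47.6% of all genes) and 5 were at least 2-fold lower in both (3.12% of all genes). Among these 5 were Mal, a raft protein of myelin, Ndrg1, a gene mutated in a demyelinating neuropathy, and Ugt8 and Fa2h, enzymes of galactolipid synthesis. Fa2h had log2 ratios of -1.30 (wild-type) and -1.86 (nude). Of the myelin proteins shared with the cord, Mbp had log2 ratios of -0.37 and 0.23, and Mag of -0.23 and 0.44. Probes of these 2 genes disagreed in nude nerve, where a dimmer probe gave -1.52 for Mbp and -2.10 for Mag, so no direction is given for either.

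The regulators of Schwann cells did not move as a block. Of 14 measured in both rat types, 10 were lower and 1 was higher in the injected nerve in both, against 47.6% and 19.9% of all genes, and none was past 2-fold in both. In nude nerve alone 71.8% of all genes were below 0. Dhh, a hedgehog ligand that Schwann cells secrete, had log2 ratios of -0.51 and -1.37, and Nab1, a cofactor of Egr2, of -0.32 and -1.09. Among genes of repair and immature Schwann cells, 3 of 12 were higher and 2 lower in both rat types. Ngfr, the low-affinity neurotrophin receptor, had log2 ratios of 1.63 and 0.71, and Ncam1 of 0.47 and 1.31.

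Markers of other cells also differed between the sides of the nerve. All 5 red cell genes were at least 2-fold higher in the injected nerve of both rat types, and the log2 of their summed level was 11.5 and 11.1 in the contralateral and 13.6 and 14.3 in the injected wild-type and nude nerves. Hbb-b1 had log2 ratios of 2.18 and 3.46. All 5 cell division genes were higher in both, with Ccna2 at 1.99 and 2.26. Of 5 adipocyte genes measured in both, 4 were at least 2-fold lower in both, with Adipoq at -3.06 and -3.12, and their summed log2 level was 10.0 and 9.8 in the contralateral and 8.9 and 8.5 in the injected nerves. All 12 macrophage genes were above 0 in wild-type and 7 in nude rats, with a log2 ratio of 1.27 and 0.36 for Cd68. Skeletal muscle genes went opposite ways, with medians of 1.33 (wild-type) and -1.22 (nude), and the 7 fibroblast genes had medians of 0.07 and 0.25. The part of these cells in the lower myelin gene levels was not tested.

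**Figure D3:**
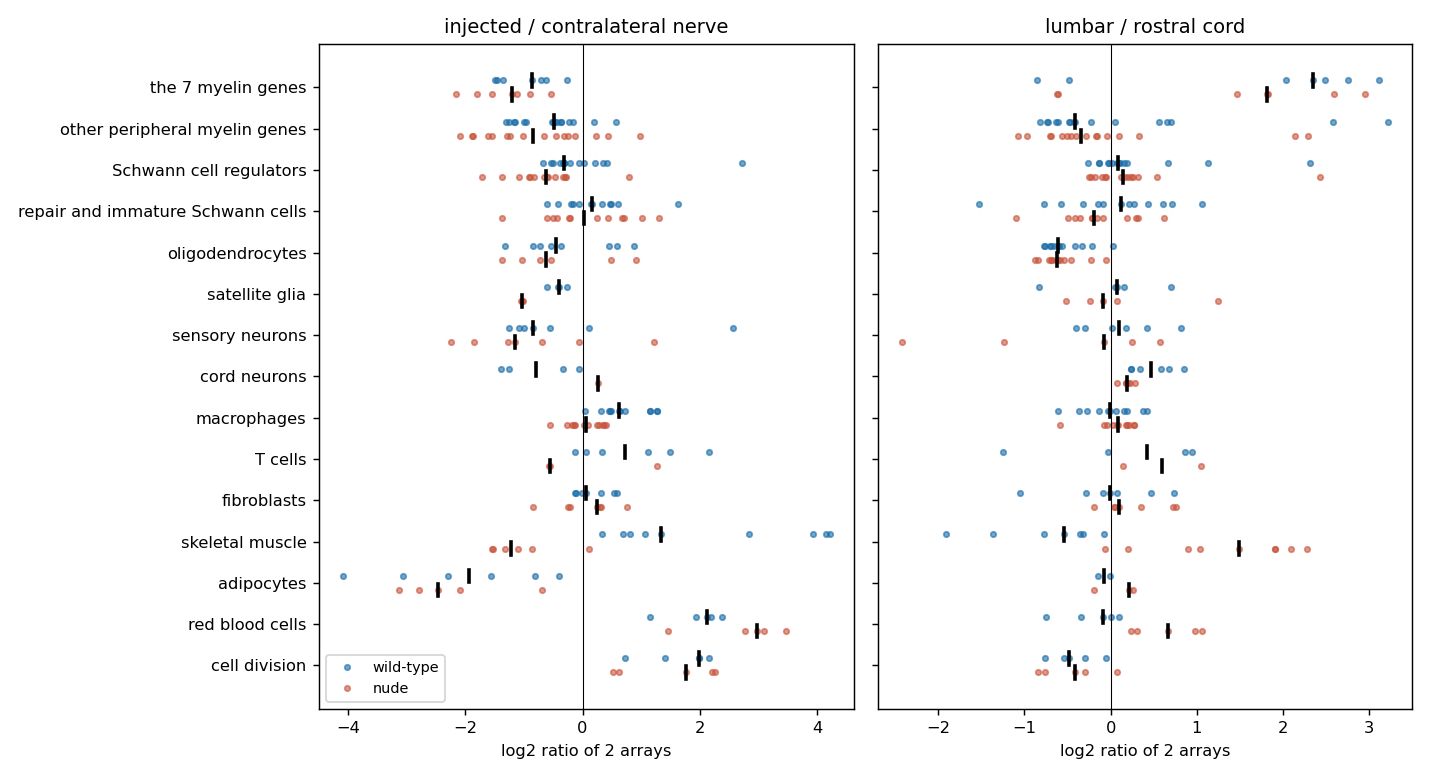
Log2 ratio of 2 arrays (horizontal axis) for every measured gene of 15 lists (rows) in nerve and in cord of wild-type and nude rats; each point is 1 gene and black bars are list medians. In nerve the 7 myelin genes lie to the left of 0 in both rat types, and in cord 5 of them, with Cldn19 of the second row and Dhh of the third, lie to the right of 1.

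The cord comparison set the lumbar dorsal cord, which receives the axons of the injected nerve, against dorsal cord above it. Here 5 of the 7 genes, Pmp2, Pmp22, Prx, Egr2 and Drp2, were at least 2-fold higher in lumbar cord in both rat types, and the other two, Sox10 and Gjb1, were lower in both. Of all genes, 1.12% of 11441 in wild-type and 1.55% of 11131 in nude cord were that much higher, and 1.39% and 1.07% that much lower. In all, 36 genes were at least 2-fold higher in both rat types, 28.1% of the 128 in wild-type and 20.9% of the 172 in nude rats, and the 5 myelin genes were among them.

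The Prx level was 2.83 in lumbar and -0.29 in rostral cord of the wild-type group, and 2.65 and 0.05 in the nude group. It was 8.69-fold higher in lumbar cord in wild-type rats, the highest ratio of the 7 genes there, and 6.05-fold higher in nude rats. The Pmp2 level was 6.22 in lumbar and 3.47 in rostral wild-type cord, and 5.88 and 2.93 in nude cord. Pmp2 was 6.75-fold and 7.76-fold higher in lumbar cord. The second Pmp2 probe gave log2 ratios of 2.76 and 2.74 against 2.75 and 2.96. The Pmp22 level was 8.36 and 6.01 in wild-type and 8.08 and 6.26 in nude rats, a 5.08-fold and a 3.53-fold difference. The share of measured genes with a lower ratio ran from 99.398% (Egr2, nude) to 99.965% (Prx, wild-type) over the 5 genes and both rat types.

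Egr2 had a level of 0.14 in lumbar and -2.35 in rostral wild-type cord, and of -0.18 and -1.65 in nude cord, so it was 5.63-fold and 2.77-fold higher in lumbar cord. In cord, Drp2 was well above background on the lumbar arrays only, at -0.77 and -1.04. Its ratios, 4.09-fold higher there in wild-type and 3.51-fold higher in nude rats, rest on rostral signals not well above background. Both genes were dim in cord, and with a different background correction (normexp on the median spot signal) their log2 ratios were 0.91 and 0.44 for Egr2 and 0.56 and 0.31 for Drp2. The count of genes at least 2-fold higher was then 3 of 7 in each rat type.

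Sox10 and Gjb1, which oligodendrocytes also express, were lower in lumbar cord. The Sox10 level was 4.32 in lumbar and 4.80 in rostral cord in wild-type animals, and 4.57 and 5.20 in nude ones. The Gjb1 level was 1.52 and 2.38 in wild-type and 1.31 and 1.91 in nude rats, with log2 ratios of -0.85 and -0.61. Oligodendrocyte genes lay the same way: 11 of 12 were lower in lumbar cord in both rat types, as were 45.2% of all genes, with medians of -0.61 (wild-type) and -0.62 (nude), and with -0.77 and -0.88 for Hapln2, a link protein at nodes of Ranvier.

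The other peripheral myelin genes did not share this direction as a list. Of 16 measured, 4 were higher and 10 lower in lumbar cord in both rat types, with medians of -0.42 (wild-type) and -0.34 (nude), and 2 were at least 2-fold higher in both. One of these was Cldn19, a claudin of Schwann cell tight junctions, with log2 ratios of 2.58 and 2.14. Of 14 Schwann cell regulators, 7 were higher and 4 lower in both, and 1, Dhh, was past 2-fold in both (2.31 and 2.43). The 5 satellite glia genes had medians of 0.08 and -0.09. The highest of them in both rat types was Cdh19, a cadherin of Schwann cell precursors and satellite glia, at 0.70 and 1.25. Its signal in nude rostral cord was not well above background. The sensory neuron genes had medians of 0.10 and -0.08, the fibroblast genes of -0.01 and 0.09 and the macrophage genes of -0.01 and 0.09. Skeletal muscle genes had a median of 1.49 in nude cord, where 6 of 9 were at least 2-fold higher in lumbar cord, but of -0.54 in wild-type rats, where none was. Which tissue the RNA of the myelin genes and the muscle genes came from was not tested. Because the lumbar cord differs from its control in segment as well as in its link to the injected nerve, the 2 cannot be told apart.

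**Figure D4:**
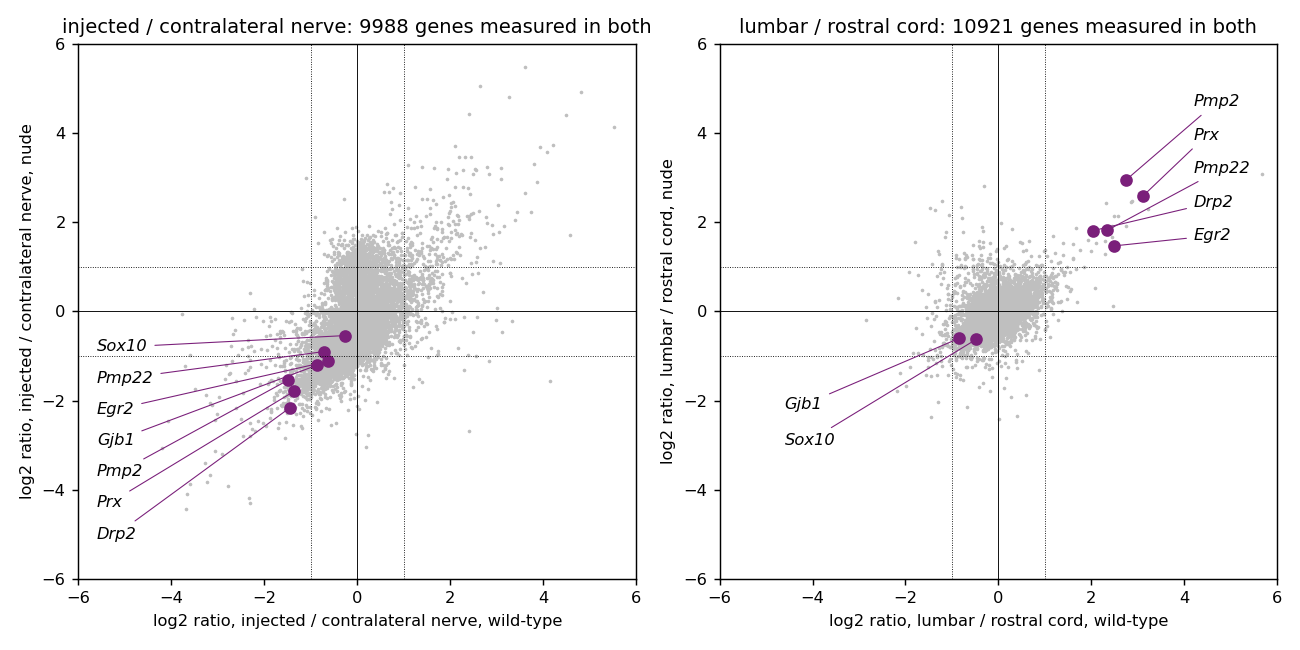
Log2 ratio in nude rats (vertical axis) against that in wild-type rats (horizontal axis) for all genes measured in both (gray) and for the 7 myelin genes (purple), in nerve (9988 genes) and cord (10921 genes); dotted lines mark 2-fold. All 7 genes lie to the lower left of 0 in nerve, and Pmp2, Prx, Pmp22, Drp2 and Egr2 lie in the upper right corner outside the main cloud in cord.

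The DRG comparison set the ganglia of the injected side against those of the other side. None of the 7 genes was 2-fold different in either rat type, and few of all genes were. In wild-type DRG 1.2% of 11508 genes were higher and 0.582% lower by that much, and in nude DRG 1.75% and 0.785% of 10060 genes. The absence of such a difference does not set the 7 genes apart. The 7 genes had median log2 ratios of -0.23 (wild-type) and 0.10 (nude), against 0.02 for all genes in both. With normexp correction the wild-type median was 0.13, so no direction is given. Drp2 stood at -0.53 (wild-type) and 0.35 (nude), the lowest and the highest of the 14 values. Prx had levels of 5.33 on the injected and 5.62 on the other side in wild-type ganglia and of 3.97 and 4.18 in nude ganglia, so its 2 rat types differed by more than its 2 sides. The same held for Egr2, at 3.06 and 3.05 in wild-type and 2.56 and 2.59 in nude ganglia. Rat type, day and slide cannot be told apart in DRG, since the wild-type ganglia and cords lay on a slide of their own. Skeletal muscle genes had a median of 2.54 in nude DRG and 0.17 in wild-type DRG.

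The levels were then compared between tissues over 4 arrays each, with limma across 12016 genes and rat type as a term. Arrays of the same tissue differed in side or segment, which widens the spread that the fit uses, and in rat type. Those of both sides and of different tissues can come from the same rats. As a statement about rats, these p-values can thus be too small or too large. Pmp2, Pmp22, Prx, Egr2 and Drp2 were higher in nerve than in cord and higher in DRG than in cord, and Gjb1 was lower in both. This is 5 of 7 genes higher in nerve than in cord, where 35.6% of all genes were, and 2 of 7 lower, where 28.6% were.

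The mean Pmp2 level was 8.97 ± 0.88 (SD, n = 4 arrays) in nerve, 8.50 ± 0.52 in DRG and 4.63 ± 1.67 in cord. The 4 nerve arrays and the 4 DRG arrays overlapped. Its difference between nerve and cord was 4.34 ± 0.65 (SE) on the log2 scale, with a limma adjusted p of 5.2e-05. Pmp22 stood at 11.04 ± 0.47, 10.43 ± 0.15 and 7.18 ± 1.21, and Prx at 5.65 ± 0.92, 4.77 ± 0.82 and 1.31 ± 1.66. Prx differed between nerve and cord by 4.35 ± 0.69 (adjusted p = 9.2e-05 by limma) and Pmp22 by 3.86 ± 0.45 (adjusted p = 5.1e-06 by limma). Egr2 stood at 3.08 ± 0.53 in nerve, 2.81 ± 0.28 in DRG and -1.01 ± 1.19 in cord, and Drp2 at 2.22 ± 1.08, 1.55 ± 0.57 and -1.87 ± 1.11. Drp2 was well above background on 2 of the 4 cord arrays. The SDs in cord were above 1 for these 5 genes, and their lumbar and rostral arrays lay apart, as in the plot of levels.

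The order was the same for these 5 genes, with nerve above DRG and DRG above cord in the means, but nerve and DRG did not differ beyond their spread over all arrays. That spread holds the difference between the injected and contralateral nerve. For the 5 genes the differences between nerve and DRG were between 0.27 and 0.88, and none passed the test. Among the 6 contralateral and rostral arrays alone, all 5 were higher in nerve than in DRG, where 33.2% of all genes were higher and 11.8% lower. Pmp2 differed by 1.23 ± 0.20 (limma adjusted p = 3.9e-06), Prx by 1.54 ± 0.27 (limma adjusted p = 1.7e-05), Pmp22 by 0.99 ± 0.17, Drp2 by 1.53 ± 0.33 and Egr2 by 0.70 ± 0.27 (limma adjusted p = 0.037). That fit had 2 arrays per tissue, and its estimate of the spread came mostly from other genes. In the fit of all 12 arrays, 32.2% of genes were higher in nerve than in DRG and 13.1% lower, and the share of calls that were higher was 71.1%, against 52.4% with arrays scaled to the 75th percentile.

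**Figure D5:**
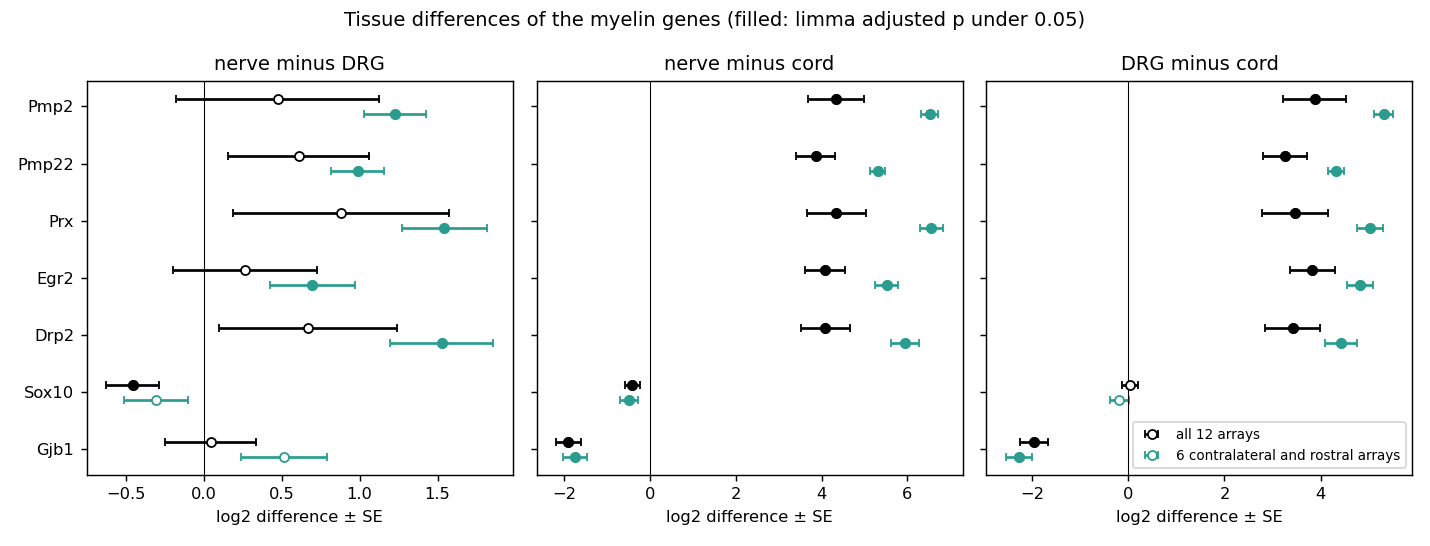
Log2 difference between tissues (horizontal axis, bars are the SE of the limma fit) for the 7 genes over all 12 arrays (black) and over the 6 contralateral and rostral arrays (green); filled points have a limma adjusted p under 0.05. Pmp2, Pmp22, Prx, Egr2 and Drp2 lie between 3.25 and 6.56 above cord, and their differences between nerve and DRG are filled only for the 6 arrays.

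Gjb1 and Sox10 had another order. Gjb1 stood at 1.78 ± 0.47 (SD, n = 4 arrays) in cord, -0.12 ± 0.64 in nerve and -0.17 ± 0.13 in DRG. It was well above background on 3 of the 4 nerve arrays and on all DRG and cord arrays. Its difference was -1.90 ± 0.29 (SE) between nerve and cord (limma adjusted p = 6.5e-05) and -1.95 ± 0.29 between DRG and cord (limma adjusted p = 8.5e-05). Sox10 varied least, at 4.31 ± 0.29 in nerve, 4.77 ± 0.11 in DRG and 4.73 ± 0.37 in cord. It was lower in nerve than in DRG by -0.45 ± 0.17 and than in cord by -0.41 ± 0.17, with limma adjusted p of 0.044 and 0.047, and these calls were lost when any of 7 and any of 9 of the 12 arrays were left out singly (limma adjusted p up to 0.11 and 0.17). DRG and cord did not differ in Sox10 beyond their spread (0.04 ± 0.17, limma adjusted p = 0.85). The share of genes called was 25.5% higher and 33.5% lower in DRG than in cord, and 43.3% of these calls were higher, against 53.6% with the 75th percentile.

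The tissue differences were set against rat type with an interaction term. Rat type, day and slide cannot be told apart here, since the wild-type DRG and cord arrays lay on a slide of their own. The spread of this fit holds the side or segment difference, because each rat type and tissue had 1 treated and 1 control array. A gene that did not pass may thus still have a tissue difference that depends on rat type. None of the 7 genes passed the interaction test, and of all 12016 genes 0 passed in either contrast by limma, with 351 (nerve minus DRG) and 227 (nerve minus cord) at an unadjusted p under 0.05. The lowest unadjusted p among the 7 was 0.32, for Drp2 by limma, whose difference between nerve and DRG was -1.24 ± 1.20 (SE) on the log2 scale as wild-type minus nude (adjusted p = 1.00).

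Across the 12 arrays 5 of the 7 genes had closely similar levels. Pearson's r between the levels of Pmp2, Pmp22, Prx, Egr2 and Drp2 was between 0.97 and 0.99 for every pair, while r with Gjb1 was between -0.79 and -0.89 and with Sox10 between -0.38 and -0.46. Between Sox10 and Gjb1 themselves r was 0.41. These are descriptions over arrays that share tissues, so the difference between cord and the other tissues sets most of them. Among 8994 candidates detected on each of the 4 nerve arrays, the 6 whose levels were most like the mean of the 7 included Per1, Cldn19, Pla2g5, Slc36a2 and Sema3b, with r from 0.994 (Per1) to 0.985 (Sema3b). These genes were picked by their levels on the same arrays, so ratios like those of the members are no separate evidence. Per1, a gene of the circadian clock, was lower in injected nerve (-1.24 and -1.42 on the log2 scale) and higher in lumbar cord (2.87 and 2.47). Slc36a2, an amino acid transporter, had -0.87 and -1.54 in nerve and 2.86 and 2.46 in cord. Pla2g5, a secreted phospholipase, had -1.19 and -2.09 in nerve and 1.999 and 1.36 in cord. Sema3b, a secreted semaphorin, had -0.96 and -1.43 in nerve and 1.07 and 0.71 in cord.

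Of the wider lists, 7 of 16 other peripheral myelin genes were higher and 6 lower in nerve than in cord, and 1, Litaf (0.86), was higher and 0 lower in nerve than in DRG (limma, adjusted p under 0.05). Cldn19 (4.05 ± 0.55 on the log2 scale), Itgb4, an integrin of the outer Schwann cell surface, and Utrn, which encodes utrophin, were among those higher in nerve than in cord. Mag, Cnp, Fa2h, Ugt8 and Gamt were among the 6 lower ones. Schwann cell regulators were higher in nerve than in cord for 11 of 15 and lower for 3, with Dhh at 4.02 and Erbb2, a receptor subunit for neuregulin, at 3.06.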

How the data were processed

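Total RNA (Cy3-labeled, pooled from 3 rats per array per the labels) was hybridized to SurePrint G3 Rat GE arrays. The intensity values are spot signals that the authors' Feature Extraction software made by subtracting local background and spatial trend, with no step between arrays. The labels and methods name version 10.5 and the file headers 10.7.3.1. The deposited log2 values are the authors' normalized table, whose sorted columns differed by at most 0.00153. Other deposited values are flags of 0 or 1 per spot.

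Outlier spots were dropped, log2 signals averaged per probe (30367 probes), the array median subtracted, and values floored at the lowest probe well above background on that array. Of these probes, 17998 were named through RefSeq accessions (GRCr8), giving 15153 genes, with the brightest probe used for 2605 genes that had several. Ratios within a rat type and tissue used genes well above background on at least 1 of 2 arrays, without p-values. A gene well above background on 1 array only kept its floored ratio, which is uncertain and not a strict bound. It was left out where its floored value went the other way. Tissues were compared with limma 3.58.1 (lmFit, eBayes with trend, Benjamini-Hochberg, 0.05) on genes well above background on 2 or more arrays. The fit was also run on simulated data with independent errors. Those data held no effect of side, segment, slide or shared animals, so they do not check the p-values given here. Alternatives were the 75th percentile, quantile normalization, normexp background correction, the authors' normalized values, other filters, floors and probe rules, subsets of arrays, single arrays left out and the methods' t-test. The number of arrays limits the precision. One slide held the 6 nude arrays with both wild-type nerve arrays, and the other 4 arrays lay on a second.

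Genes named were the 8 members, Mbp and Mag, of each other list the 2 genes with the largest absolute mean nerve ratio among those well above background on all 4 nerve arrays, and the 6 genes most like the members. Erbb2, Litaf, Itgb4, Utrn, Cnp, Gamt, Mal, Ndrg1 and Ugt8 were added after their values were seen. Some genes of the lists and of the naming rule are counted but not reported here by name. The members and lists were chosen with earlier results of these data known. Work was done in Python 3.11.15 and R 4.3.3.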

Additional observations from a re-analysis of the deposited data

Results flagged for a closer look

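Ratios of opposite sign in the 2 rat types were found in DRG for 5 of the 7 genes, and the difference between the rat types was not tested. Of 10002 genes measured in both rat types there, 20.4% were lower in both and 24.9% higher in both, and the rest shared no sign. Such pairs were thus common among all genes. The log2 ratio of the injected over the contralateral side was -0.21 (wild-type) and 0.19 (nude) for Pmp2, -0.23 and 0.12 for Pmp22, 0.012 and -0.032 for Egr2, -0.29 and 0.10 for Gjb1, and -0.53 and 0.35 for Drp2. None of these values reached 2-fold, and no such opposite pair was found in nerve or cord. By Dixon's test for a single outlier, no array stood apart from the other 3 of its tissue for any of the 7 genes. That test says little here, because each tissue had 2 treated and 2 control arrays. In nerve and cord these did not overlap for any of the 7 genes, as for Pmp2 in cord (5.88 and 6.22 against 2.93 and 3.47). The share of all genes without overlap was not counted, but in nerve 47.6% of genes were lower in both rat types. In cord 24.2% of genes were higher and 45.2% lower in both. A split into pairs leaves little room for a single outlier. Whether each array was sound, including that of the nude injected nerve, was thus not tested.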

How the results depend on the processing

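With 1 array per condition, the ratios could not be checked by leaving out an array, and they describe these pools. No paired fit was run: the labels give no replicate numbers, and each ratio is already the difference of 1 pair, with 1 pair per rat type. Of 3 genes at least 2-fold lower in wild-type nerve, the count was 6 at a 1.5-fold threshold and 2 with normexp correction, which took Drp2 to -0.97. Of 5 in nude nerve, it was 6 with normexp correction, 3 with the 75th percentile and 3 relative to the median of all genes, an alternative chosen after seeing the data. The 5 genes higher in lumbar cord numbered 3 in wild-type and 3 in nude rats with normexp background correction. Counts in DRG stayed at 0 in the direction tested, and none of the 7 genes past 2-fold changed direction under any alternative run. With normexp correction, 4 of the 6 negative wild-type DRG ratios turned positive (Pmp2 0.16, Pmp22 0.13, Prx 0.06, Sox10 0.19).

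In nerve against DRG, 0 genes were higher over all arrays, but 3 with 1 mean per rat type and tissue and 5 with control arrays alone. The 1 lower gene (Sox10) was 0 with normexp, with no filter, with no rat type term, in nude arrays alone, in control arrays alone and by the methods' t-test, and between 0 and 1 when single arrays were left out. In nerve against cord, the 2 lower genes were 1 with no filter, with no rat type term, in nude arrays alone and by the methods' t-test, and between 1 and 2 with arrays left out. The other counts between tissues kept to 5 higher and 1 lower in all 15 alternatives and all 12 fits without 1 array. The cause of these shifts was not tested. The methods' t-test passed 5281, 7486 and 8199 of all genes unadjusted and 3956, 6858 and 7672 after Benjamini-Hochberg adjustment (nerve minus DRG, nerve minus cord, DRG minus cord). The 5445 genes called between nerve and DRG were 2657 with normexp and 2181 in nude arrays alone, where 4903 in place of 7717 (nerve and cord) and 3619 in place of 7091 (DRG and cord) were called.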
